A study of Mus musculus with 6 samples.

Results

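Voltage-gated sodium channel alpha subunits were examined in RNA of dorsal root ganglia, which house the cell bodies of sensory neurons, from mouse embryos. The members were Scn1a, Scn3a, Scn8a, Scn9a, Scn10a and Scn11a, taken as a gene family of 6 among 37086 genes in the deposited tables. Their 25 annotated transcripts, of 89664 that could be matched to a gene, held 211 distinct exons and 180 distinct introns. All 6 libraries came from 1 pool of total RNA from the ganglia of 18 wild-type C57BL/6J embryos at embryonic day 14.5. The high-volume group received the RNA in 9 µl and the low-volume group in 1 µl, each with its own SMARTer low-input kit, so volume and kit cannot be told apart. Both volumes received 3, 10 or 30 ng, and every combination gave 1 library. The libraries were therefore technical repeats, and every SD, SE and p-value below covers technical spread only, not spread between embryos.

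An alpha subunit is the large protein that forms the sodium-selective pore and the voltage sensors, and it carries the rising phase of the action potential. Scn9a encodes Nav1.7, which sets the threshold of pain-sensing neurons, and Scn10a and Scn11a encode Nav1.8 and Nav1.9, the tetrodotoxin-resistant channels of small sensory neurons. Scn3a encodes Nav1.3, the channel best known from embryonic neurons, while Scn1a and Scn8a encode Nav1.1 and Nav1.6, which are prominent in the mature nervous system, Nav1.6 at nodes of Ranvier.

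Several of these genes carry a pair of alternative exons that encode part of a voltage sensor in the first domain of the channel. The upstream copy is commonly called the neonatal form and the downstream copy the adult form. Such pairs, of 92 bases each, were found by rule in Scn3a, Scn8a and Scn9a. The downstream copies are printed because they show how alike this exon is between the genes whose forms are counted below. The coding-strand sequences are on GRCm38 and come from GENCODE M21 transcripts. Capitals mark the 8 bases that are not the same in all 3 genes.
Scn3a downstream copy, chr2:65525695-65525786, minus strand: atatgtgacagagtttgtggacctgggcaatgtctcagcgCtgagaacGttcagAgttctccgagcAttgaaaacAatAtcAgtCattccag
Scn8a downstream copy, chr15:100959603-100959694, plus strand: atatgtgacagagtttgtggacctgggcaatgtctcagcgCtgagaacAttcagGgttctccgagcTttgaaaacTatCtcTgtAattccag
Scn9a downstream copy, chr2:66563336-66563427, minus strand: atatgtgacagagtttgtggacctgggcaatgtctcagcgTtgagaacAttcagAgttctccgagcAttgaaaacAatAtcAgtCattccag
The downstream copies of Scn3a and Scn9a shared 90 of 92 bases (97.8%), and that of Scn8a shared 85 (92.4%) with either. How the authors treated reads with several matches is not given in the sources used here, so tags of the Scn3a and Scn9a exons may in part be shared.

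The chosen transcripts of all genes held 14160401 to 31524211 tags per library. The 3 ng libraries stood apart. Over 10866 genes, Pearson's r of log2 CPM (tags scaled to library size) was 0.845 to 0.925 for pairs with a 3 ng library, and 0.974 to 0.988 for pairs without one, and no library repeated another. Sensory neuron markers were high, with Tubb3 at 2961 ± 501 RPKM and Isl1 at 129 ± 17.9 (SD, n = 6 technical libraries for each). The values are the authors' RPKM, tags per kilobase of transcript, scaled to the tags of the library. Glial, connective tissue, macrophage and muscle transcripts were present too, for example Sox10 at 13.2, Dcn at 92.6, C1qb at 54.8 and Mylpf at 22.05 RPKM on average. Mylpf was the highest of the skeletal muscle markers, with Acta1 at 10.1, Myog at 1.41, Ckm at 0.653 and Myod1 at 0.0848 RPKM. The defining markers of sympathetic neurons and of spinal cord were low, with mean RPKM at 0.118 for Dbh and 0.00517 for Olig2. In such bulk RNA, fewer cells that use a gene and less RNA of it per cell cannot be told apart.

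Scn9a and Scn10a were the most abundant members and Scn1a and Scn8a the least. Scn9a had 15.6, 18.6 and 15.9 RPKM in the high-volume libraries at 3, 10 and 30 ng, and 15.6, 21.03 and 20.2 RPKM in the low-volume libraries, with a mean of 17.8 ± 2.46 (SD, n = 6). Its mean RPKM was above that of 91.6% of all genes. The values of the volumes overlapped, and the counts behind them were 2375 to 6732 tags. Scn10a had 12.8, 8.76 and 9.51 RPKM at high volume and 9.18, 9.42 and 9.08 at low volume, a mean of 9.79 ± 1.50. Only the high-volume 3 ng library lay away from the rest. Scn3a had 1.70, 3.50 and 2.82 RPKM at high volume and 2.30, 4.17 and 4.12 at low volume, a mean of 3.10 ± 1.00. In both volumes its lowest library was the one made from 3 ng.

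Scn11a had 2.15, 1.22 and 1.57 RPKM at high volume and 5.45, 1.10 and 1.44 at low volume, with a mean of 2.16 ± 1.65. The low-volume 3 ng library stood far above the other 5. Scn1a had 1.38, 0.424 and 0.533 RPKM at high volume and 0.373, 0.665 and 0.622 at low volume, with a mean of 0.666 ± 0.367. Here the high-volume 3 ng library was the high one, and the low-volume 3 ng library was the lowest. Scn8a had 0.385, 0.582 and 0.745 RPKM at high volume and 0.568, 0.674 and 0.761 at low volume, with a mean of 0.619 ± 0.140. It rested on 67 to 290 tags per library, and Scn1a on 53 to 179. Without the 3 ng libraries the mean RPKM was 1.33 ± 0.213 for Scn11a, 0.561 ± 0.107 for Scn1a, 3.65 ± 0.633 for Scn3a and 0.691 ± 0.0816 for Scn8a (SD, n = 4).

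**Figure D1:**
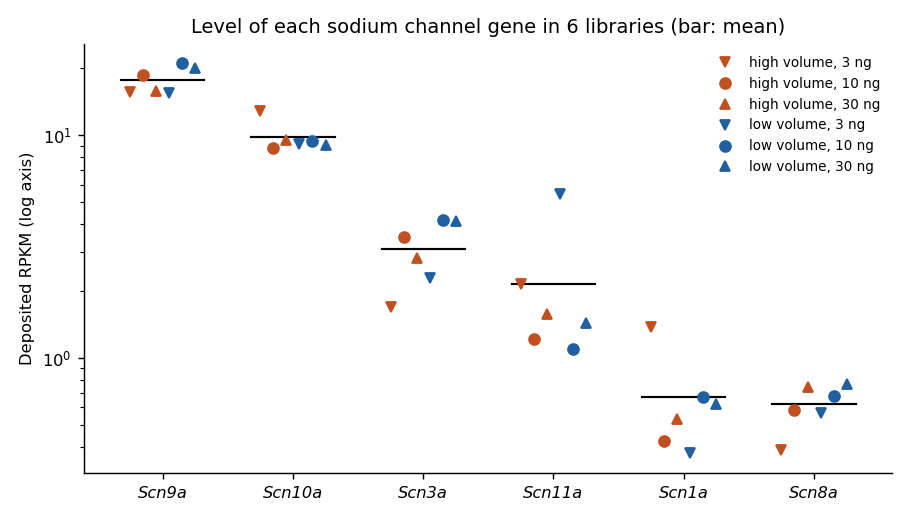
Deposited RPKM (log axis) of the 6 sodium channel genes, with 1 point per library coloured by volume and shaped by input, and a bar at the mean. Scn9a and Scn10a lie above all other members in every library, and the outlying points of Scn10a, Scn11a and Scn1a are 3 ng libraries.

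Neighbours in this order were compared within each library on the log2(RPKM + 1) scale by an exact permutation test that flips signs (two-sided). With 6 libraries it cannot go below 0.0312, and p-values were adjusted over the 5 pairs. Scn9a exceeded Scn10a by 0.80 ± 0.32 (SD), higher in 6 of 6 libraries (exact p = 0.0312, adjusted 0.0521). Scn10a exceeded Scn3a by 1.43 ± 0.52, again in 6 of 6 (exact p = 0.0312, adjusted 0.0521), and Scn11a exceeded Scn1a by 0.83 ± 0.71 in 6 of 6, with the same p-values. These pairs were as separate as this design can show, yet missed the 0.05 threshold after adjustment. Scn3a exceeded Scn11a by 0.46 ± 0.88 and was higher in 4 of 6 libraries (exact p = 0.25, adjusted 0.312), so their order did not hold up. Without the low-volume 3 ng library the difference was 0.75, and in the 10 and 30 ng libraries Scn3a was higher in 4 of 4, by 0.99 (exact p = 0.125, the smallest possible there). Scn11a minus Scn1a was 0.54 without the low-volume 3 ng library. Scn1a and Scn8a differed by 0.02 ± 0.38 (exact p = 1, adjusted 1), and Scn1a was the higher in 1 of 6 libraries. In the first window of internal exons, exons 2 to 11, Scn1a was the denser of the pair in 6 of 6 libraries, by 0.67 ± 0.52 on the log2(exon RPKM + 1) scale, and Scn11a minus Scn1a was 0.26 ± 1.19, higher in 4 of 6. In the 10 exons before the last, the same differences were 0.02 ± 0.48 (2 of 6) and 0.83 ± 0.64 (6 of 6). Exon RPKM is the tags per kilobase of the named exons, scaled to the tags of all chosen transcripts of the library. These windows were set after the exon profiles were seen and carry no test.

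The tags of Scn9a were densest in its 5′ exons and sparsest in exons 12 to 26, with its last exon in between. Scn9a lies on chr2:66480080-66634952, minus strand, and its chosen transcript, ENSMUST00000100064, has 27 exons and 9840 bases. Its exons 2 to 11 hold 1649 bases and took 52.2% of its tags. Its exons 12 to 26 hold 3169 bases and took 7.53%, and its last exon, of 4525 bases, took 32.2%. Summed over libraries, the density was 7942 tags per kilobase in exon 10 (chr2:66547023-66547229), 2747 in exon 11 (chr2:66543035-66543319) and 487 in exon 12 (chr2:66540264-66540635). In the last exon it was 1911. The highest density was 14100 tags per kilobase, in exon 4. Exons 1 to 11 hold 26.9% of the coding bases of the transcript.

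This drop was present in every library. Densities of exons in single libraries are given as exon RPKM. The density of exons 2 to 11 was 49.0, 59.1 and 60.9 exon RPKM at high volume (3, 10 and 30 ng) and 49.4, 69.1 and 70.1 at low volume. The density of the 10 exons before the last exon was 5.92, 5.09 and 4.26 at high volume and 5.50, 5.40 and 4.90 at low volume. The means were 59.6 ± 9.15 and 5.18 ± 0.571 (SD, n = 6). The ratio of these densities ran from 8.28 to 14.3 over the libraries and was 12.2 over the pooled tags. The windows were set after the exon profiles were seen, which can favour Scn9a in a ranking on them. The ratio and its rank are descriptions and have no test. Among 1168 genes, the 6 members and all others with at least 22 exons and 100 tags in each window, 0 had a larger pooled ratio than Scn9a. The median gene had 0.620 and the 95th percentile was 2.28. Among the other members the pooled ratio was 3.37 for Scn1a, 1.70 for Scn11a, 1.50 for Scn8a, 1.19 for Scn3a and 0.984 for Scn10a. The ratio of Scn11a was 0.956 without the low-volume 3 ng library, and the others moved less than 1.5 times with any 1 library left out.

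**Figure D2:**
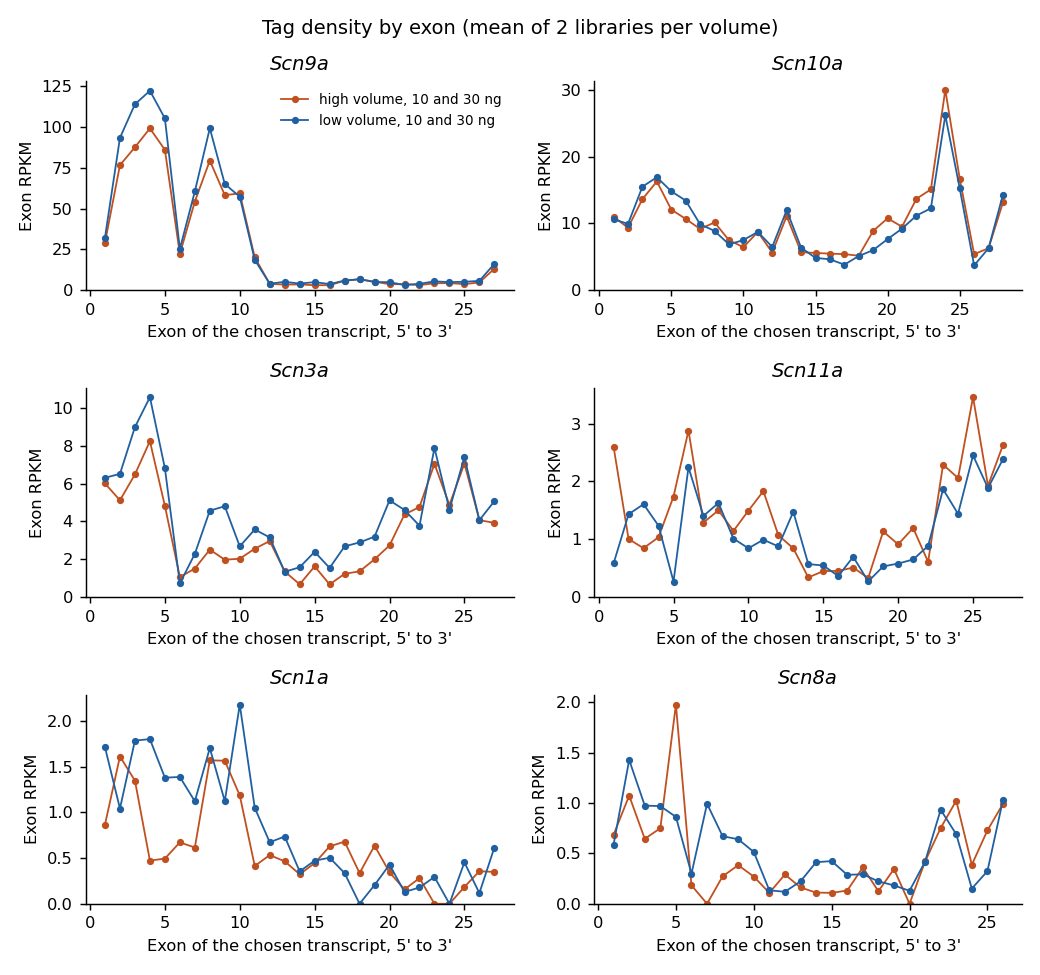
Tag density (exon RPKM) by exon of the chosen transcript of each gene, as the mean of the 10 and 30 ng libraries of each volume. In Scn9a the density is high in exons 2 to 10 and low from exon 12 to exon 26 at both volumes, with no such drop in Scn10a.

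The rank of Scn9a against Scn10a depended on which exons were read. Scn10a, on chr9:119608456-119719032, minus strand, has 28 exons in its chosen transcript, ENSMUST00000084787, and its mean density was alike in both windows, at 10.7 ± 1.60 exon RPKM in exons 2 to 11 and 11.1 ± 4.77 in the 10 exons before the last. The ratio of the windows ran from 0.668 in the high-volume to 1.82 in the low-volume 3 ng library, and single exons held 609 to 4000 tags per kilobase over all libraries. In exons 2 to 11 Scn9a was the denser in 6 of 6 libraries, with 5.56 times the mean of Scn10a. In the 10 exons before the last Scn9a was the denser in 0 of 6 libraries, with 0.467 times the mean of Scn10a. The ratio there was 0.296, 0.463 and 0.383 at high volume and 0.968, 0.590 and 0.507 at low volume, close to even in the low-volume 3 ng library. The RPKM of the whole transcript, on which Scn9a was above Scn10a, mixes these parts.

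**Figure D3:**
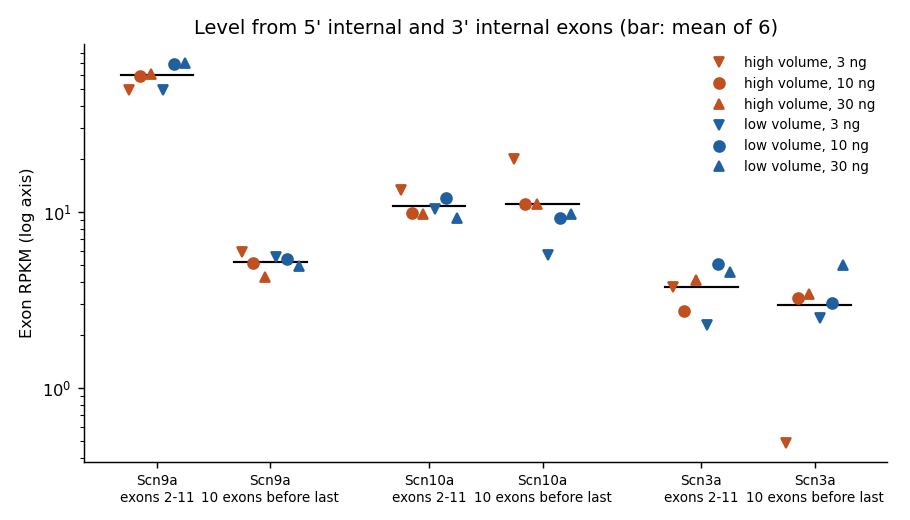
Density (exon RPKM, log axis) in exons 2 to 11 and in the 10 exons before the last exon of Scn9a, Scn10a and Scn3a, with 1 point per library and a bar at the mean. Scn9a is above Scn10a in the first window in all 6 libraries and below it in the second window in all 6.

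An annotated antisense gene, Gm13629 (chr2:66440880-66546026, plus strand), overlaps the part of Scn9a where the density was low. Its 3′ end lies in intron 10 of Scn9a, and exons 11 to 27 of Scn9a, 17 in all, lie inside its span. Its level was 0.525 ± 0.135 RPKM on 9 to 18 tags per library, and its own exons share 180 bases (1.83%) with Scn9a, in the last exon. Whether it has a part in the drop was not tested. No other member shared exonic bases with another gene.

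Scn9a introns near the 5′ end also carried tags. Intron 5 had 2105 tags in 1471 bases, and 1949 of them (92.6%) lay in the 448 bases next to exon 5 (chr2:66564655-66565102) that an annotated retained-intron transcript includes. That segment had 0.354 times the density of exon 5 over the pooled tags, and 0.243 to 0.670 times in single libraries. In the downstream part of the gene, intron 17 (11175 bases) held 1959 tags, at 20.1% of the density of its flanking exons. A 45-base cassette exon of the annotated transcript ENSMUST00000100063 (chr2:66551675-66551719) had 0 tags in all 6 libraries. Exon 12 has a 33-base segment at its 3′ end (chr2:66540264-66540296), present in some annotated forms and absent from others. It is shown because these forms differ by it at this exon: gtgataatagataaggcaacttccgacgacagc. An annotated retained-intron transcript (chr2:66540015-66543175) also spans the segment, so its tags alone do not tell these forms apart. The segment held 23 tags, at 1.50 times the density of the rest of the exon, with 2 to 9 tags per library. In the libraries with tags in the rest of the exon, the density ratio ran from 0.514 to 2.25.

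The neonatal and adult exons of Scn9a were both in use. The upstream copy had 37, 54 and 46 tags at high volume and 21, 73 and 61 at low volume, and the downstream copy 11, 54 and 54 and 8, 58 and 79. Pooled, the upstream copy held 292 of 556 tags, or 52.5% (95% exact Clopper-Pearson interval 48.3 to 56.7%, counting error only). It was 77.1% and 72.4% in the high-volume and low-volume 3 ng libraries and 43.6 to 55.7% in the other 4. Together the copies reached 6043 tags per kilobase, against 12300 in exon 5 and 7390 in exon 7, while exon 6 of the profile is the upstream copy alone, at 3174. In Scn3a the upstream copy held 44 of 53 tags, or 83.0% (interval 70.2 to 91.9%), and 16 of the 44 came from the high-volume 3 ng library. In single libraries its share ran from 58.3 to 100.0%. Without the 3 ng libraries the pooled upstream share was 48.9% in Scn9a and 75% in Scn3a. In Scn8a the downstream copy had more tags, with 3 of 17 tags in the upstream copy, or 17.6% (interval 3.8 to 43.4%), and no tag of either copy in the 3 ng libraries. Of these 3 tags 2 came from the low-volume 10 ng library, without which the share was 6.67%, and without the low-volume 30 ng library it was 25% (interval 5.49 to 57.2%). The volumes differed by less than the spread between libraries, with mean upstream shares of 57.7% at high and 57.2% at low volume in Scn9a and of 86.1% and 88.1% in Scn3a (exact permutation p = 1 for both, smallest possible 0.1).

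**Figure D4:**
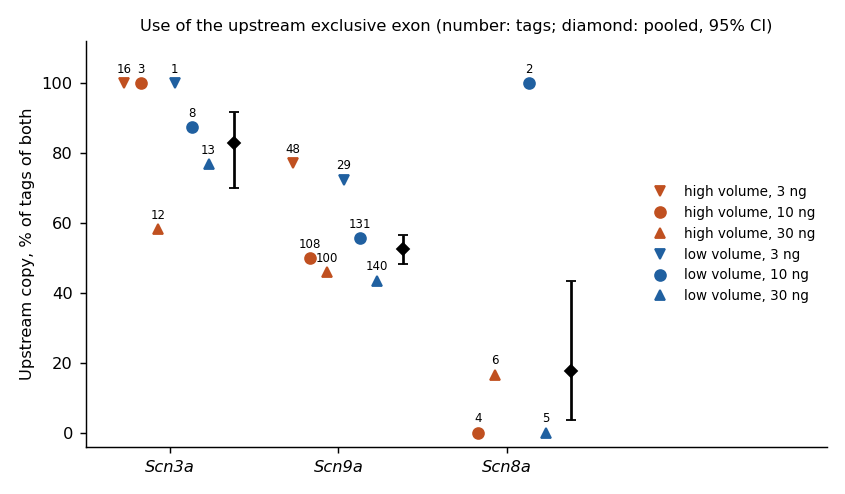
Upstream copy as a percentage of the tags of both alternative exons, for Scn3a, Scn9a and Scn8a. Points are libraries, labelled with their number of tags, and diamonds are the pooled share with its 95% interval. The pooled shares are 83.0% in Scn3a, 52.5% in Scn9a and 17.6% in Scn8a, while the shares of single libraries overlap between the genes.

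Scn3a lies on chr2:65457118-65567627, minus strand, and its chosen transcript, ENSMUST00000066432, has 27 exons. Its last exon took 53.1% of its tags. The 1145 bases at the 3′ end of that exon, which only the longer of the annotated last exons includes, held 64 of its 2518 tags (2.54%), at 0.0792 times the density of the rest. The density ratio was 0.135 or lower in every library. A comparison of distal segment and rest gave 2.62 in Scn9a, where the distal 2011 bases held 67.7% of the last-exon tags. In Scn1a 84.2% of the last-exon tags (165 of 196) lay in the distal 2103 of 3282 bases. The pooled density ratio there was 2.98, with only 31 tags in the rest. It ran from 1.07 to 29.2 over the libraries with tags in the rest. The segments were unlike between genes. That of Scn1a was nearly all of the 2107 untranslated bases of its last exon. Those of Scn9a and Scn3a were parts of 3341 and 3442 untranslated bases. So defined, the distal segment carried most last-exon tags in Scn9a and Scn1a and few in Scn3a.

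Intron 4 of Scn3a held 1634 tags, at 591 tags per kilobase and 59.1% of the density of its flanking exons. The short intron 6, just after the downstream alternative exon, reached 146% of its flanking exons on 212 tags. That value depends on the chosen transcript, whose exon 6 is the downstream copy with 9 tags. The upstream copy, with 44 tags, lies in its intron 5. Both copies together reached 576 tags per kilobase and exon 7 had 205, beside 259 in intron 6. Over a transcript, only introns that overlap no annotated exon were counted, 21 of 26 in Scn3a and 16 of 26 in Scn9a. The value of Scn3a includes intron 4, which held more tags than any other of its introns. On this measure, intron density was 8.88 ± 5.04% of exon density in Scn3a and 9.23 ± 5.28% in Scn8a (SD, n = 6). It was 5.83 ± 3.88% in Scn1a, 3.06 ± 0.436% in Scn9a, 1.55 ± 0.886% in Scn11a and 1.15 ± 0.238% in Scn10a. The median of 11074 genes with a mean of at least 1 RPKM was 0.651%, with quartiles of 0.207 and 1.78%. Of the 4 members with a mean of at least 1 RPKM, Scn3a and Scn9a were above the upper quartile and Scn10a and Scn11a between it and the median. Scn1a and Scn8a lie under the 1 RPKM limit, so this background does not hold them. Between volumes the exact permutation p-values ran from 0.3 to 1.

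Scn8a lies on chr15:100870683-101045929, plus strand. In its chosen transcript, ENSMUST00000108910, the last exon of 6389 bases took 71.9% of the tags, and 5244 of these bases are 3′ untranslated. Its exon 20 (chr15:101024261-101024383) is absent from 1 annotated form, and it had 1 tag over all libraries, against 5 in exon 19 and 13 in exon 21. At this depth a difference in the use of exon 20 was not detectable.

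Scn11a and Scn1a were read in patches in the 3 ng libraries, and so were Scn3a and Scn8a. In the high-volume and low-volume 3 ng libraries, 11 and 9 of 27 exons of Scn11a and 10 and 21 of 27 of Scn1a had no tag. The same held for 17 and 8 of 27 exons of Scn3a and 18 and 20 of 26 of Scn8a. Scn11a lies on chr9:119753763-119825456, minus strand, and its chosen transcript, ENSMUST00000070617, has 27 exons. In the low-volume 3 ng library, which set the high mean of this gene, 355 of its 538 tags (66.0%) fell in exons 2 to 13 and 0 in exons 14 to 22. In the other libraries exons 2 to 13 took 21.6 to 33.2%. Its last exon had 4.64 exon RPKM in that library and 2.24 to 3.03 in the others. Scn1a lies on chr2:66270781-66440840, minus strand, with 27 exons in ENSMUST00000112366. Exons 7 to 11 held 43 of its 53 tags (81.1%) in the low-volume 3 ng library. In the high-volume 3 ng library exons 7 to 11 held 46.9% and exons 18 to 22 held 27.9%, against 16.7 to 25.9% and 2.82 to 8.73% in the 10 and 30 ng libraries.

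The 3 ng libraries also had the fewest exons with a tag among all 162 exons of the 6 chosen transcripts. They were the shallowest libraries too, with 14160401 tags at high and 15920967 at low volume against at least 23511774 in the other 4, and the parts of depth and input in this were not tested. Without a tag were 62 exons (38.3%) in the high-volume 3 ng library and 58 (35.8%) in the low-volume 3 ng library. At 10 ng there were 21 at high and 18 at low volume, and at 30 ng 8 and 4. Scn9a and Scn10a, the most abundant members, each missed 3 exons in the high-volume 3 ng library and none in any other.

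**Figure D5:**
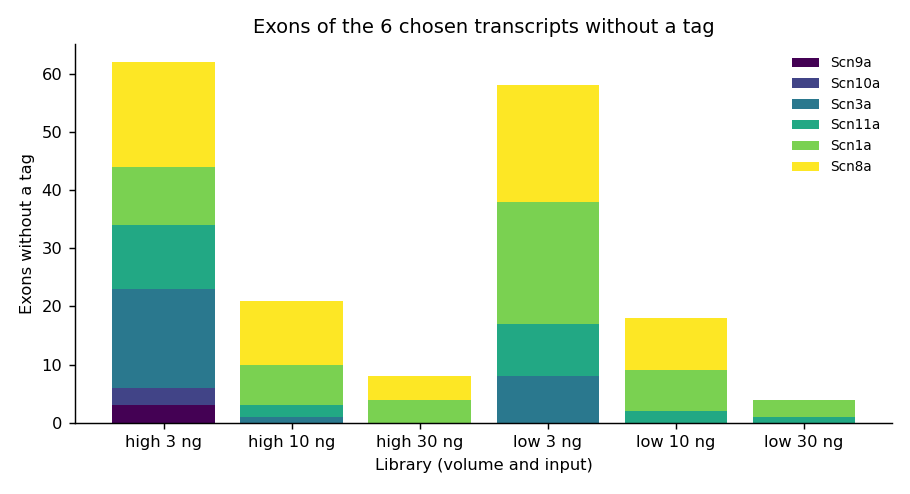
Number of exons without a tag, of 162 in the 6 chosen transcripts, by library and stacked by gene. The 3 ng bars reach 62 and 58 exons, and the other 4 bars 4 to 21.

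Over whole transcripts, the ratio of tag density in the first part of the transcript, up to its middle, to that in the last part was 3.62 ± 2.56 in Scn1a, 2.07 ± 0.512 in Scn9a, 0.982 ± 0.343 in Scn3a, 0.924 ± 1.08 in Scn8a, 0.818 ± 0.581 in Scn11a and 0.625 ± 0.114 in Scn10a (SD, n = 6). These are means of the library ratios, while the background was computed on tags pooled over the libraries. The median of 1881 genes with transcripts of at least 5000 bases and 1 RPKM was 0.495, with quartiles of 0.236 and 1.05. Pooled in the same way, the ratio was 2.48 in Scn1a, 1.985 in Scn9a and 0.853 in Scn11a. It was 0.836 in Scn3a, 0.621 in Scn10a and 0.515 in Scn8a, so Scn8a lay near the median. Scn9a lay above the upper quartile, as did Scn1a, which with Scn8a lies under the RPKM limit of this background. In the 10 and 30 ng libraries alone the mean of the library ratios was 2.01 for Scn1a, 2.09 for Scn9a, 0.401 for Scn8a and 0.517 for Scn11a. Between volumes the exact permutation p-values ran from 0.4 to 0.9.

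The design asks whether the reaction volume or the RNA input changed the measured levels. None of the 6 members passed the test for either. In edgeR's quasi-likelihood fit over all genes, 1 of 16120 genes was called for the volume (0.0062%), and it was Gm42418, which was no member and is named only because it was the single call. No member had an unadjusted p under 0.05, as 6.67% of all genes did, and DESeq2 called 2.64% of the 6527 genes to which it gave an adjusted p and 0 of the 3 members among them. It gave none for Scn1a, Scn8a and Scn11a. The log2 difference of high minus low volume was 0.51 ± 0.56 (SE) for Scn1a, 0.30 ± 0.16 for Scn10a, -0.03 ± 0.14 for Scn9a, -0.12 ± 0.31 for Scn8a, -0.25 ± 0.25 for Scn3a and -0.30 ± 0.48 for Scn11a. The edgeR adjusted p-values ran from 0.787 to 0.972. The median over the members was -0.07, and over all genes 0.02. The sign for Scn11a rested on its low-volume 3 ng library, without which the difference was 0.40. That for Scn1a rested on both 3 ng libraries, with -0.25 without the high-volume one and -0.07 without the low-volume one. With 1 library left out the difference ran from 0.10 to 0.41 for Scn10a, from -0.50 to -0.05 for Scn3a, from -0.22 to -0.00333 for Scn8a and from -0.19 to 0.11 for Scn9a. The value nearest 0 came without the high-volume 3 ng library for Scn10a and Scn8a and without the high-volume 30 ng library for Scn3a. With the 10 and 30 ng libraries alone the differences were 0.26 for Scn11a and -0.30 for Scn1a.

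For the RNA input 0 of 16120 genes were called by edgeR (0%), while 7.77% had an unadjusted p under 0.05 and DESeq2 called 0.384% of the 16140 genes to which it gave an adjusted p. Scn3a had the one member slope with an unadjusted p under 0.05, at 0.24 ± 0.10 (SE) log2 per doubling of input (edgeR adjusted p = 0.625). It was 0.18 without the high-volume and 0.16 without the low-volume 3 ng library, and then had no unadjusted p under 0.05. The slope of Scn11a was -0.37 ± 0.16 (edgeR adjusted p = 0.625), and without the low-volume 3 ng library it was -0.08. Its unadjusted p was 0.052 in edgeR, 0.0176 in edgeR without the filter and 0.0306 in DESeq2. The slopes of the other members lay between -0.15 and 0.21.

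Alpha subunits work with beta subunits, FGF homologous factors, anchors of the axon initial segment and proteins of trafficking and turnover. Of 23 such partner genes 22 were tested for the volume, and edgeR called 0 in either direction. The median of their log2 differences was 0.05, beside 0.02 over all genes. An unadjusted p under 0.05 was found for 5 of the 22, beside 6.67% of all genes, and the list was not tested as a set. The 5 were named after their values were seen: Scn2b, Fgf14, S100a10, Dpysl2 and Nedd4. Dpysl2, which encodes the Nav1.7-binding protein CRMP2, had a high minus low difference of -0.49 ± 0.10 log2 (SE, edgeR adjusted p = 0.535), and DESeq2 called it (-0.50 ± 0.12, adjusted p = 0.00274). In the 10 and 30 ng libraries alone edgeR called it too (-0.47 ± 0.06, adjusted p = 0.00417). That fit reused libraries of the main fit, had 1 residual degree of freedom and called 274 of 16564 genes. DESeq2 called 172 of 6527. Of the beta subunits, Scn3b had 27.3 ± 3.82 RPKM and Scn2b 8.10 ± 3.76 (SD, n = 6). Of the FGF homologous factors, which bind the channel's C-terminal tail, Fgf13 had 231 ± 29.4 RPKM and Fgf12 9.98 ± 2.05. The scaffold spectrin gene Sptbn1 had 40.3 ± 3.72 RPKM and the adhesion molecule gene L1cam 16.4 ± 2.05. Calm2, one of the calmodulin genes, had 2236 ± 220 RPKM, and S100a10, whose protein carries Nav1.8 to the membrane, 1538 ± 66.5.

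Regulators of neuronal splicing were present beside the alternative exons. Of 11 regulators all were tested, and edgeR called 0 for the volume, with a median log2 difference of -0.11. Elavl4 had 83.8 ± 9.62 RPKM and Elavl2 31.9 ± 6.51 (SD, n = 6), and 10 of the 11 had a mean of at least 1 RPKM. An unadjusted p under 0.05 was found for 2 of the 11, beside 6.67% of all genes. These were Ptbp2 and Celf4, named after their values were seen, at -0.65 ± 0.23 and 0.41 ± 0.17 log2 (SE, edgeR adjusted p = 0.691 and 0.745). The part of the regulators in the use of these exons was not tested.

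Among 10865 other genes, those whose log2 CPM followed a member most closely over the 6 libraries were Degs1 (Pearson's r = 0.993) and Fbxo11 (0.991) for Scn9a, Lancl2 (0.997) and Trib1 (0.994) for Scn10a, and Tiprl (0.996) and Tnfaip8 (0.991) for Scn3a. For Scn11a they were Eif4e3 (0.999) and Lrp10 (0.997), for Scn1a Pla2g15 (0.996) and Map3k3 (0.995), and for Scn8a mt-Tm (0.998) and Rhbdd3 (0.993). These values describe 6 technical libraries that differ in depth and input, and they were picked as the highest of many.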

How the data were processed

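The members and lists were chosen with earlier results of these data known. The submitters' processing notes name TopHat2 2.0.8, Bowtie2 2.1.0, CASAVA 1.8 and the GRCm38.p1 build. Which program counted the tags, with which annotation, and how multiply matching reads were treated is not given in the sources used here. Per the file headers, the authors deposited whole-number tag counts and RPKM of transcripts, exons and introns. Strand use in counting is not stated, so antisense tags may be included. Tags carry no molecular identifiers, so intervals cover counting error only.

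Transcripts were assigned to genes with GENCODE M21 (89664 of 93615 matched), and each gene was represented by its transcript with the most tags. Counts were tested with edgeR 4.0.16 (R 4.3.3, TMM, filterByExpr, quasi-likelihood, volume plus centred log2 input, Benjamini-Hochberg, threshold 0.05), which was tested on simulated data. DESeq2 1.42.0 was an alternative. SEs were derived from the F statistic. Levels used log2(RPKM + 1), with the exact tests named in the text. Exclusive exons were pairs of 60 to 200 bases, within 10 bases of each other in length, less than 2000 bases apart and never in 1 transcript together. Intron ratios left out introns that overlap an exon of any gene. Named genes were all members, the 2 most abundant partners per role and splicing regulators, list genes past the threshold, the markers listed, and the 2 genes most correlated with each member. Genes singled out beyond this rule were chosen after their values were seen. The sequences of the upstream copies are not reported here.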

Additional observations from a re-analysis of the deposited data

How the results depend on the processing

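No member passed the threshold for volume or input under total-count scaling, DESeq2, no filter, the longest transcript, or leaving out each library, except that DESeq2 gave no adjusted p for the volume to Scn1a, Scn8a and Scn11a. In the fit with a replicate block, the input taken as the block, 0 of 6 members were called for the volume, and the 10 and 30 ng libraries alone also gave 0. Libraries of the same input did not pair, with correlations of their deviations of 0.0278, 0.13 and 0.00752 at 3, 10 and 30 ng, and not every library correlated best with its own input. The member counts rest on 1 to 3 residual degrees of freedom. Over all genes the volume calls were 1 in the reported fit, 0 with the replicate block, 11 without the filter, 172 with DESeq2 and 274 in the 10 and 30 ng libraries. For the input they were 0, 2 without the filter and 62 with DESeq2. Total-count scaling moved the median volume difference of all genes from 0.02 to -0.10 and that of the members to -0.19. The 10 and 30 ng libraries turned the volume difference to -0.30 for Scn1a, 0.00815 for Scn8a and 0.26 for Scn11a.

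Leaving out 1 library gave volume differences of -0.25 to 0.83 for Scn1a, -0.77 to 0.40 for Scn11a and -0.19 to 0.11 for Scn9a. It gave input slopes of -0.37 to 0.23 for Scn1a, -0.124 to 0.0213 for Scn10a and -0.00864 to 0.128 for Scn9a. The difference of Scn1a minus Scn8a ran from -0.131 to 0.0631 with a library left out, and was -0.355 on CPM and -0.116 in the 10 and 30 ng libraries. Scn9a minus Scn10a was -0.89 in the 10 exons before the last. These exon windows, and the use of the 10 and 30 ng libraries alone for levels, density and introns, were chosen after seeing the data. The other results in the order of levels kept their direction under each alternative run. With 5 libraries the smallest sign-flip p is 0.0625, so no pair could pass. The first-to-last ratio of Scn9a tag density was 2.07 ± 0.512 (SD, n = 6) when split at the middle, 3.56 when only the outermost parts of the transcript were read, and 9.27 without exons shared with another gene, which drops its last exon. The median of 1881 long genes was 0.495 when split at the middle, on tags pooled over the libraries, where Scn9a had 1.985. Partner genes called were 1 with DESeq2 and 1 in the 10 and 30 ng libraries, Dpysl2 in both. Over all genes these fits called 172 of 6527 and 274 of 16564.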
